A study of Mus musculus with 12 samples.

Results

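The genes described here encode the oxidases that make nitric oxide, superoxide and hydrogen peroxide in the gut: Nos2, the inducible nitric oxide synthase, the epithelial oxidase genes Duox2, Duoxa2, Nox1 and Noxo1, and the phagocyte NADPH oxidase genes Cybb, Cyba, Ncf1 and Ncf4. They were chosen by name, 9 genes in all, and a gene counted as measured where a probe set carried its symbol and no other. That held for 7 of the 9 genes, each with 1 probe set, among 21314 genes measured in this way. The probe sets annotated to Duoxa2 and Noxo1 also named a second gene each (Duoxa1 and Tbl3), so no value is given for either.

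RNA of the whole colon came from 12 mice of 6 to 8 weeks, 3 in each of 4 groups, and was hybridised to Affymetrix arrays. Parp1-/- mice that for 7 days drank water with DSS (dextran sulfate sodium) at 4% were set beside wild-type mice given the same DSS, and Parp1-/- mice on plain water beside wild-type mice on plain water. DSS damages the lining of the colon and is a standard way to cause colitis in mice. Parp1 encodes a nuclear enzyme that builds poly(ADP-ribose) chains at DNA breaks, and the labels give neither the allele, the background strain nor whether the genotypes were littermates. Each array is 1 mouse, so errors below are between animals.

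Inducible nitric oxide synthase turns arginine into nitric oxide in epithelial cells and macrophages that meet cytokines or bacterial products. Duox2 sits in the apical membrane of the colonic epithelium and releases hydrogen peroxide towards the lumen, and it leaves the endoplasmic reticulum only with its maturation factor Duoxa2. Nox1, the main superoxide source of colonic epithelial cells, pairs with the membrane protein p22phox and is switched on by the organizer Noxo1 with an activator. In neutrophils and macrophages gp91phox, the product of Cybb, pairs with the same p22phox, the product of Cyba, and cytosolic subunits that include p47phox (Ncf1) and p40phox (Ncf4) join them on activation.

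Values are the deposited log2 values, in which each probe set has a median of 0 over the 12 arrays, so a value compares arrays for 1 gene and never 1 gene with another. In all, 4 arrays stood apart from the others: all those labelled wild-type water, and the array labelled wild-type DSS 1. In these 4 arrays the housekeeping mean, taken over 16 genes that nearly every cell uses, lay between -1.76 and -0.93, against 0.031 to 0.41 in the other 8 arrays, and the spread (SD) over all genes was 0.67 to 0.88 against 0.25 to 0.38. The median of 1054 smell and vomeronasal receptor genes, which the colon hardly uses, was 0.38 to 0.42 in these 4 arrays, against -0.12 to 0.050 in the others. The 13 colon epithelium markers, among them Epcam and Muc2, averaged -1.66 to -0.58 in the arrays that stood apart, against 0.016 to 0.26 in the rest. Smooth muscle markers averaged 2.69 to 2.75 in 3 Parp1-/- arrays (DSS 1, water 2 and water 3), against -0.55 to 0.12 in the other 9 arrays. Parp1 itself ran from -0.22 to 0.026 in the 6 Parp1-/- arrays, against -0.41 to 1.15 in the 6 wild-type arrays. In 4 wild-type arrays it lay above all Parp1-/- arrays, the one labelled wild-type water 1 had less than any Parp1-/- array, and the one labelled wild-type DSS 1 had a value inside the Parp1-/- range. Measured from each array's housekeeping mean, Parp1 ran from -0.34 to -0.0045 in Parp1-/- arrays and from 0.36 to 2.13 in wild-type arrays, with no overlap. That subtraction raised the 4 arrays that stood apart, all of them wild-type. On that scale 15861 genes were lower in Parp1-/- than in wild-type water mice at an adjusted p under 0.05 in limma, so this gap alone does not check the genotypes. Since no wild-type water array was free of the shift in housekeeping genes, every comparison with wild-type water mice below carries that shift, and its part in those results was not tested.

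**Figure D1:**
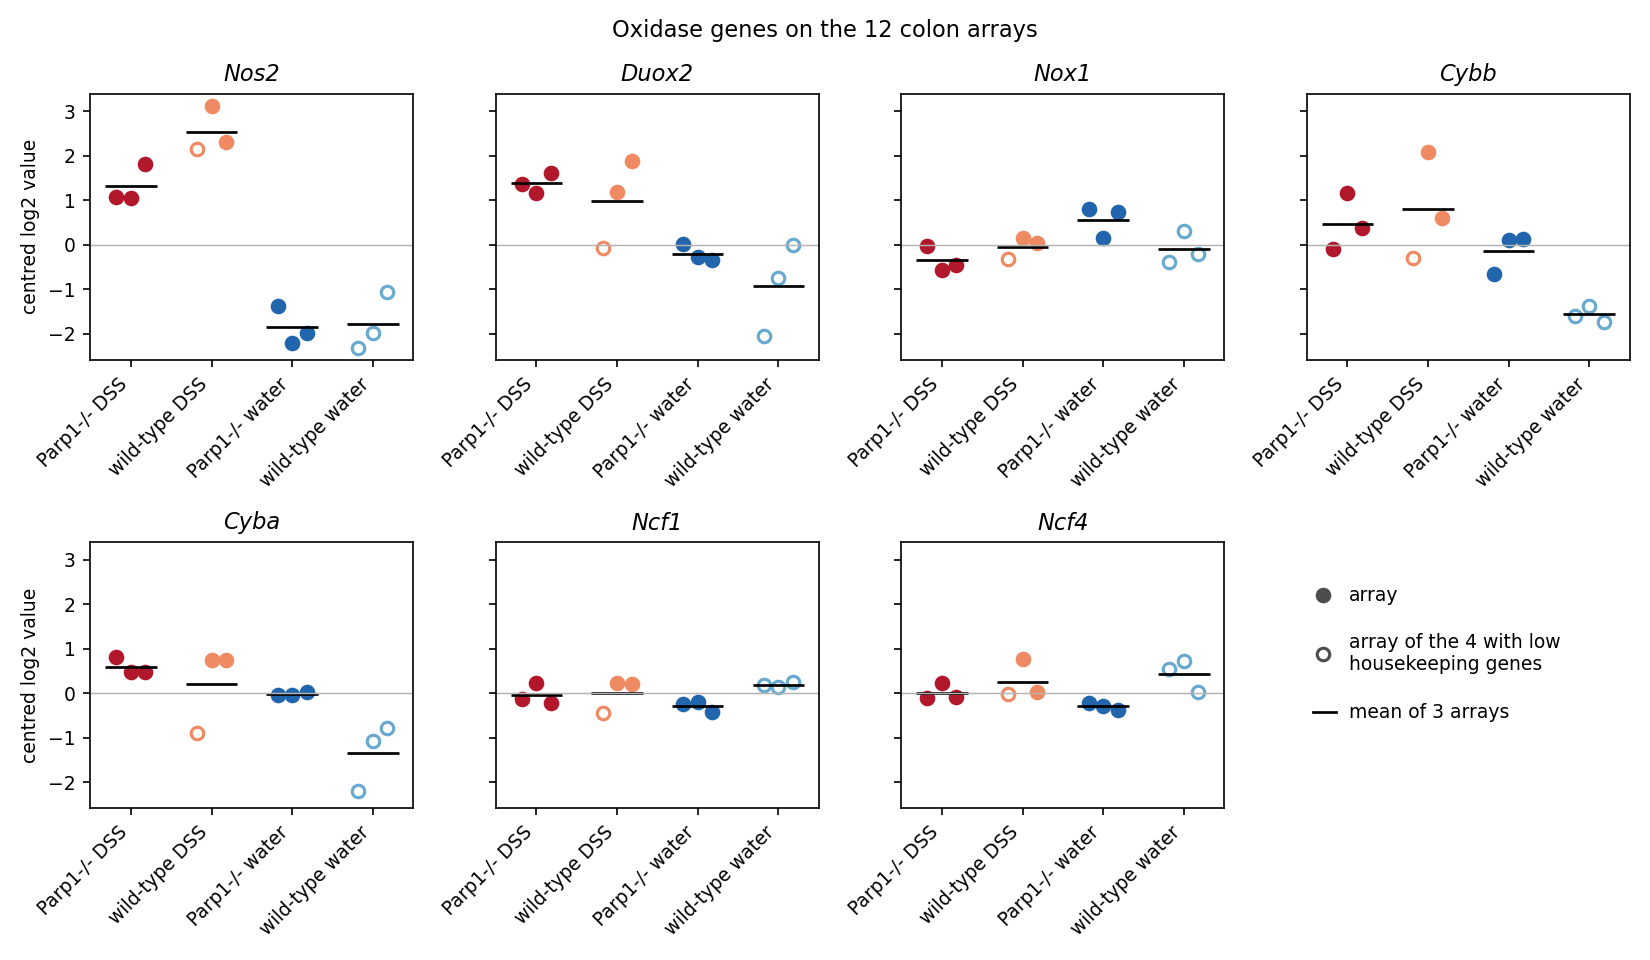
Centred log2 value (vertical axis) of each of the 7 measured oxidase genes on the 12 arrays, by group. Each point is 1 mouse, the bar is the mean of 3, and open points mark the 4 arrays with low housekeeping genes. Nos2 separates all DSS arrays from all water arrays, whereas Cybb is lowest in the wild-type water arrays and Cyba in the 4 open points.

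Nos2 was higher under DSS in both genotypes, and it gave the largest DSS response of the 7 measured oxidase genes in each. In Parp1-/- mice its values were 1.07, 1.06 and 1.80 under DSS, against -1.37, -2.20 and -1.99 in water. All 3 DSS arrays lay above all 3 water arrays, and the gap between the groups exceeded the range within either. Nos2 rose by 3.17 ± 0.37 on the log2 scale (SE, 95% interval 2.34 to 3.99, 8.97-fold, limma's moderated test, Benjamini-Hochberg adjusted p = 0.0341). It was the 1 of 7 oxidase genes called higher at an adjusted p under 0.05, where 0.00938% of all genes were called higher, that is 2 genes, and 609 genes (2.86%) had an unadjusted p under 0.05. The call was lost when single arrays were left out: the adjusted p became 0.289 or 0.197 with Parp1-/- water 2 or water 3 left out, 0.119 or 0.259 with Parp1-/- DSS 1 or DSS 3 left out, and 0.0583 with wild-type water 2 left out. It was 0.0527 when only the 6 Parp1-/- arrays were fitted and 0.0920 with the smooth muscle mean of each array as a covariate. The difference itself stayed between 2.92 and 3.60 over 25 alternatives.

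In wild-type mice Nos2 had values of 2.15, 3.12 and 2.30 under DSS, against -2.31, -1.99 and -1.06 in water. Again the groups did not overlap. Nos2 rose by 4.31 ± 0.37 (SE, 19.9-fold, limma, adjusted p = 7.05e-05), and it was called in all 24 alternatives run for it, with differences from 3.16 to 4.71. The array labelled wild-type DSS 1, the only DSS array with low housekeeping genes, had the lowest of the 3 DSS values, more than 3 log2 units above the highest wild-type water array. The wild-type water arrays had low housekeeping genes too, and the part of this shift in the Nos2 rise was not tested. Subtracting the housekeeping mean of each array left a rise of 3.16 in wild-type mice, with an adjusted p of 0.000668 in limma.

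Under DSS, the Nos2 values of all 3 Parp1-/- mice (1.07, 1.06 and 1.80) lay below those of all 3 wild-type mice (2.15, 3.12 and 2.30). The difference was -1.22 ± 0.37 on the log2 scale (SE, 95% interval -2.04 to -0.40), or 0.430 of the wild-type level. Its unadjusted p was 0.00749 in limma and its adjusted p over all genes was 0.872, so it did not pass the test. Nos2 was the 1 of 7 oxidase genes whose Parp1-/- DSS arrays lay wholly below the wild-type DSS arrays, against 4.52% of all genes, and 0 of 7 lay wholly above, against 2.04%. The difference stayed negative in 25 of 25 alternatives, from -1.70 to -0.92, and passed only with array weights, which count noisier arrays less (adjusted p = 0.0118). In water, Nos2 averaged -1.86 ± 0.43 in Parp1-/- mice and -1.79 ± 0.65 in wild-type mice (SD, n = 3 each), a difference of -0.068 that depended on the scaling. It was -1.37 after quantile normalization (adjusted p = 0.0187) and -1.49 with the housekeeping mean subtracted (adjusted p = 0.00369 in limma), a scale on which the median of all genes was also -1.49, and it was 0.28 with the smooth muscle mean as a covariate. The DSS responses differed by -1.15 ± 0.53, Parp1-/- minus wild type, with an adjusted p of 0.292 in limma. This sign also turned with the scaling, to 0.39 after quantile normalization and 0.049 with the housekeeping mean subtracted. In the order of group means, wild-type DSS stood first, then Parp1-/- DSS, then wild-type water and Parp1-/- water, and on the deposited scale the 2 water groups did not differ beyond their spread. With the housekeeping mean subtracted the water groups did not overlap, at -2.37 to -1.44 in Parp1-/- mice and -1.02 to 0.13 in wild-type mice. On that scale 15861 genes were called lower in Parp1-/- water mice, so the lower values there are not particular to Nos2.

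Neutrophil markers were higher in the same arrays as Nos2, and in RNA of whole colon fewer cells of a type and less RNA per cell cannot be told apart. Of 12 listed neutrophil markers 11 were measured. Their mean lay between 0.11 and 1.43 in Parp1-/- DSS arrays, against -0.91 to -0.40 in Parp1-/- water arrays, and between 0.80 and 1.89 in wild-type DSS arrays, against -0.46 to -0.37 in wild-type water arrays. All 11 had differences above 0 in each genotype, with 0 called in Parp1-/- mice (0.00938% of all genes were called higher) and 6 called higher in wild-type mice (8.89% of all genes), among them Ly6g, Cxcr2, Retnlg and Mmp8. Under DSS 10 of the 11 were lower in Parp1-/- mice than in wild-type mice by point value, none passed the test, and the nearest was the collagenase gene Mmp8 at -1.63 ± 0.39 (adjusted p = 0.872 in limma). The part of these markers in the Nos2 values was not tested.

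**Figure D2:**
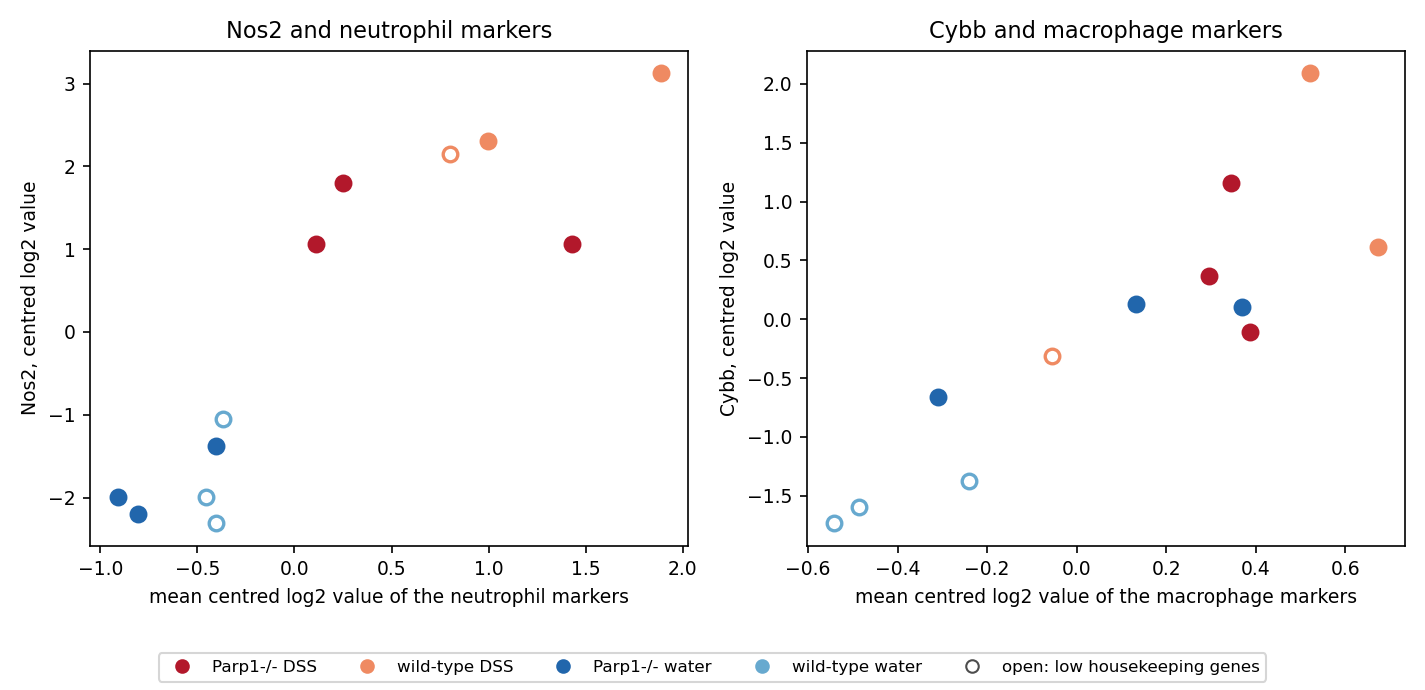
Left, Nos2 against the mean of the neutrophil markers, and right, Cybb against the mean of the macrophage markers, all as centred log2 values, with 1 point for each of the 12 arrays. Colours give the groups and open points the 4 arrays with low housekeeping genes. Nos2 and the neutrophil markers are both higher in the DSS arrays, and Cybb is lowest in the wild-type water arrays, where the macrophage mean runs from -0.54 to -0.24.

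Of the genes that supply nitric oxide synthases with arginine or cofactor or compete with them for arginine, 13 of 13 were measured. In Parp1-/- mice 0 of the 13 passed the test under DSS, and their median difference was -0.014, against 0.010 for all genes. Arg2, the mitochondrial arginase that draws on the same arginine, came nearest, with values of 1.38, 1.92 and 0.33 under DSS, against -0.30, -0.23 and -0.39 in water (adjusted p = 0.818 in limma). In wild-type mice 2 of the 13 were called higher, against 8.89% of all genes, and none lower. These were Arg2, which rose by 1.97 ± 0.42 (adjusted p = 0.0117), and Ddah1, which breaks down a natural inhibitor of nitric oxide synthases and rose by 1.55 ± 0.40 (adjusted p = 0.0287, limma). Arg2 thus had a positive difference in both genotypes, and the array labelled wild-type DSS 1 was the lowest of the wild-type DSS arrays at 0.23.

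Cytokines, receptors and transcription factors known to raise these oxidases were measured for 12 of 15 listed genes. In wild-type mice 10 of the 12 had differences above 0 under DSS, and 6 were called higher and 0 lower, against 8.89% and 4.16% of all genes. Il1b, the inflammatory cytokine, rose by 4.34 ± 0.74 (adjusted p = 0.00358), and Tnf by 2.37 ± 0.58 (adjusted p = 0.0213, limma). Stat3 rose by 2.44 ± 0.35 (adjusted p = 0.00135) and Myd88 by 2.03 ± 0.27 (adjusted p = 0.000861, limma). In Parp1-/- mice 11 of the 12 had differences above 0 and 0 passed the test. There Il1b had values of 0.77, 3.93 and 1.25 under DSS, against -1.11, -1.60 and -1.57 in water (adjusted p = 0.419), and Tnf had 1.21, 1.78 and 1.69 against -0.83, -0.49 and -0.81 (adjusted p = 0.639). For both genes the DSS arrays lay wholly above the water arrays in Parp1-/- mice, as they did for 7.82% of all genes. Il1b and Tnf were the genes of smallest p among the 12 in that comparison. Between the genotypes under DSS, 0 of the 12 passed, and interferon gamma (Ifng) came nearest at -0.95 ± 0.45 (adjusted p = 0.872 in limma).

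Duox2, the hydrogen peroxide source of the epithelium, had values of 1.36, 1.15 and 1.61 in Parp1-/- DSS mice, against 0.0085, -0.27 and -0.35 in Parp1-/- water mice. The groups lay more than 1 log2 unit apart at their nearest points. The difference of 1.58 ± 0.51 (SE, 95% interval 0.45 to 2.71) had an unadjusted p of 0.0104 and an adjusted p of 1 in limma, so it was not called. It was called in 1 of 25 alternatives (array weights, adjusted p = 0.00264). In all, 4 of the 7 oxidase genes had Parp1-/- DSS arrays wholly above the Parp1-/- water arrays (Nos2, Duox2, Cyba and Ncf4), against 7.82% of all genes, and 1 of 7 (Nox1) wholly below, against 4.7%.

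In wild-type mice Duox2 had -0.073, 1.18 and 1.87 under DSS, against -2.05, -0.75 and -0.0085 in water. For the array labelled wild-type DSS 1 the value stood between those of wild-type water 2 and 3, so the groups overlapped. Duox2 rose by 1.93 ± 0.51 (adjusted p = 0.0319 in limma). Subtracting the housekeeping mean brought the difference to 0.78 (adjusted p = 0.0605), and with the receptor median as a covariate it was 0.89 (adjusted p = 0.328). The call was also lost without the array labelled wild-type water 1 (adjusted p = 0.0909), without wild-type water 2 (0.0561), without wild-type DSS 2 (0.110) and without wild-type DSS 3 (0.105). After quantile normalization its adjusted p was 0.112, and it was 0.168 when only the 6 wild-type arrays were fitted. Parp1-/- mice had Duox2 values 0.38 ± 0.51 above wild-type mice under DSS (95% interval -0.74 to 1.51, adjusted p = 0.881), and without the array labelled wild-type DSS 1 this difference was -0.15. In water the genotype difference was 0.73 ± 0.51 (adjusted p = 0.272 in limma), and its sign turned to -0.69 with the housekeeping mean subtracted and -1.02 with the receptor median as a covariate. Group means ran in the order Parp1-/- DSS, wild-type DSS, Parp1-/- water and wild-type water, and the 2 DSS groups, like the 2 water groups, did not differ beyond their spread.

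The promoter of Duox2 is shown because it was the epithelial oxidase gene called higher under DSS in wild-type mice, and because its start site lies 673 bases from that of Duoxa2 on the opposite strand of chromosome 2. Each sequence printed here covers 250 bases before to 50 bases after a RefSeq start site of build GRCm38.p6, 5′ to 3′ on the strand of the gene, and capitals mark matches to 5 short motifs searched on both strands: TTCNNNGAA (STAT factors), GGNNTTTCC (part of the NF-kappaB motif), GAAANNGAA (part of the interferon response element), TATAAA (the core of the TATA box) and GAGGAA (PU.1). Among 32851 promoters of the same length, these motifs occurred in 8.3%, 5.82%, 8.56%, 13.6% and 28.3%, in that order. The window of Duox2, chr2:122298178-122298477 on the minus strand, held none of the 5:
Duox2: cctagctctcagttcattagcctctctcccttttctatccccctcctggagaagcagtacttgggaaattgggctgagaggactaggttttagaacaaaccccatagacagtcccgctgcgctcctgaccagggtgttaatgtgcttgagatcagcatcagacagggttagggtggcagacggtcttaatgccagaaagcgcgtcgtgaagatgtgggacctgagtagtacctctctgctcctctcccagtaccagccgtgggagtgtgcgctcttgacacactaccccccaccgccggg
The Duoxa2 window held the TATA box motif at position -30, counted from the start site as 0, and no other of the 5. A match is a string of letters and not a measured binding site.

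Nox1 went the other way by point value in Parp1-/- mice. It had -0.038, -0.56 and -0.47 under DSS, against 0.79, 0.15 and 0.74 in water. All 3 DSS arrays lay below all 3 water arrays. The difference of -0.92 ± 0.25 (SE, 95% interval -1.46 to -0.38, 0.530-fold) had an unadjusted p of 0.00323 and an adjusted p of 0.757 in limma, so it did not pass. It stayed negative in 25 of 25 alternatives, from -1.49 to -0.80, and was called in 1 of them (array weights, adjusted p = 0.0167).

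In wild-type mice Nox1 had -0.33, 0.16 and 0.038 under DSS, against -0.38, 0.30 and -0.22 in water. These groups lay on top of each other, with a difference of 0.058 ± 0.25 (95% interval -0.48 to 0.60, adjusted p = 0.901 in limma). Its sign was not stable: with the housekeeping mean subtracted the difference was -1.09 (adjusted p = 0.00939), on a scale where the median of all genes was -1.20. The DSS responses of Nox1 differed by -0.97 ± 0.35 between the genotypes (95% interval -1.74 to -0.21, adjusted p = 0.183), by -1.12 with array weights (adjusted p = 0.0484, limma) and by 0.22 with the housekeeping mean subtracted. Group means ran in the order Parp1-/- water, wild-type DSS, wild-type water and Parp1-/- DSS. In water Parp1-/- mice had values 0.66 ± 0.25 above wild-type mice (adjusted p = 0.0594). Of 24 alternatives, 5 called it higher, with an adjusted p down to 0.0302, and 1 called it lower, at -0.76 with the housekeeping mean subtracted. There the median of all genes was lower still, at -1.49. Under DSS the genotype difference was -0.31 ± 0.25 (adjusted p = 0.872, limma). Of the other neighbours in the order, wild-type DSS and wild-type water did not differ beyond their spread.

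The Nox1 promoter, chrX:134111805-134112104 on the minus strand, is shown beside that of Duox2 because these epithelial oxidase genes differed in the sign of their DSS difference in Parp1-/- mice. It held 1 match to the NF-kappaB motif, read on the opposite strand and starting at position -91 from the start site, and 1 match to the PU.1 motif starting at position -23:
Nox1: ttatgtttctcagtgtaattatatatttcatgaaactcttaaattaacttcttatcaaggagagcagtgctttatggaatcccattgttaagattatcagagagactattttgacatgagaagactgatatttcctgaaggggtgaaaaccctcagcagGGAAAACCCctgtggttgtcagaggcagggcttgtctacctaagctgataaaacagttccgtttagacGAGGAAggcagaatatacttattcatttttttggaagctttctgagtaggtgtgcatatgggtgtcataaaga

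Cybb, the catalytic subunit of the phagocyte oxidase, was the phagocyte gene with the largest DSS response, and only in wild-type mice did it pass the test. Wild-type mice had -0.31, 2.09 and 0.61 under DSS, against -1.60, -1.37 and -1.73 in water. No DSS array overlapped the water arrays, but the DSS arrays spread over more than 2 log2 units, with the array labelled wild-type DSS 1 at the bottom and wild-type DSS 2 at the top. Cybb rose by 2.36 ± 0.51 (SE, 5.15-fold, adjusted p = 0.0127 in limma). The rise was called in 20 of 24 alternatives, and its size was 1.21 with the housekeeping mean subtracted (adjusted p = 0.0239), 1.42 after quantile normalization (adjusted p = 0.218) and 1.65 with the receptor median as a covariate (adjusted p = 0.129). Fitted on the 6 wild-type arrays alone it had an adjusted p of 0.0656.

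In Parp1-/- mice Cybb had -0.11, 1.15 and 0.36 under DSS, against -0.66, 0.11 and 0.13 in water. The ranges overlapped, and the difference of 0.61 ± 0.51 (95% interval -0.51 to 1.74) was not called (adjusted p = 1). That the gene passed in 1 genotype does not show that the genotypes responded differently: the difference of the responses was -1.75 ± 0.73 (95% interval -3.34 to -0.16), with an adjusted p of 0.243 in limma. It was -0.56 with the housekeeping mean subtracted (adjusted p = 0.451), -2.31 without the array labelled wild-type DSS 1 (adjusted p = 0.0307) and -2.99 with array weights (adjusted p = 0.00605), so that it was called in 2 of 23 alternatives. In water Parp1-/- mice had values 1.43 ± 0.51 above wild-type mice (adjusted p = 0.0534) without overlap. That difference was called in 5 of 24 alternatives, and it was 0.0045 once the housekeeping mean was subtracted. Under DSS the genotypes differed by -0.33 ± 0.51 (adjusted p = 0.892), and by 0.32 without wild-type DSS 2. Group means ran in the order wild-type DSS, Parp1-/- DSS, Parp1-/- water and wild-type water, and the 2 DSS groups did not differ beyond their spread.

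Cyba, whose product p22phox steadies both gp91phox and Nox1, had 0.82, 0.47 and 0.47 in Parp1-/- DSS mice, against -0.036, -0.039 and 0.036 in Parp1-/- water mice. These groups were tight and did not overlap, yet the difference of 0.60 ± 0.44 had an adjusted p of 1 in limma, whose SE is shared over the 4 groups. Fitted on the 8 arrays that did not stand apart, the same difference had an SE of 0.12 and an adjusted p of 0.268. Wild-type mice had -0.88, 0.73 and 0.74 under DSS, against -2.20, -1.07 and -0.78 in water. Again the value of the array labelled wild-type DSS 1 stood between those of wild-type water 2 and 3. Cyba rose by 1.55 ± 0.44 in wild-type mice (adjusted p = 0.0388), and leaving out any of 10 arrays in turn lost the call, with adjusted p of up to 0.154. With the housekeeping mean subtracted its difference was 0.40 (adjusted p = 0.243, limma).

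In water Cyba was higher in Parp1-/- mice than in wild-type mice by 1.34 ± 0.44 (adjusted p = 0.0375 in limma), and the groups did not overlap. This was the 1 of 7 oxidase genes called higher in Parp1-/- water mice, where 17.9% of all genes were called higher and 26.2% lay wholly above. Its value depended on the scaling of the arrays: it was -0.081 with the housekeeping mean subtracted, -0.37 with the receptor median as a covariate and 0.63 after quantile normalization. Under DSS the genotype difference was 0.39 ± 0.44 (adjusted p = 0.872), and -0.15 without the array labelled wild-type DSS 1. The order of group means was Parp1-/- DSS, wild-type DSS, Parp1-/- water and wild-type water, and neither Parp1-/- DSS and wild-type DSS nor wild-type DSS and Parp1-/- water differed beyond their spread.

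Ncf1, which carries the organizer p47phox, did not pass any comparison on the deposited values when all 12 arrays were fitted and weighted alike. It had -0.14, 0.23 and -0.22 in Parp1-/- DSS mice, -0.44, 0.23 and 0.21 in wild-type DSS mice, -0.24, -0.21 and -0.42 in Parp1-/- water mice, and 0.19, 0.14 and 0.25 in wild-type water mice. Its whole range over 12 arrays was 0.69, against 5.43 for Nos2. DSS differences were 0.25 ± 0.20 in Parp1-/- mice (adjusted p = 1) and -0.19 ± 0.20 in wild-type mice (adjusted p = 0.553 in limma). In water all 3 Parp1-/- arrays lay below all 3 wild-type arrays, with a difference of -0.48 ± 0.20 (adjusted p = 0.0827), as did 29.2% of all genes. It was called in 4 of 24 alternatives, at -1.90 with the housekeeping mean subtracted (adjusted p = 0.000616), -0.52 with array weights (adjusted p = 0.0497), -0.48 on the water arrays alone (adjusted p = 0.0434) and -0.48 without the array labelled wild-type DSS 1 (adjusted p = 0.0219, limma). With the housekeeping mean subtracted the DSS difference in wild-type mice (-1.34, adjusted p = 0.00374) and the difference of the responses (1.64, adjusted p = 0.0416) were called too, with medians of all genes at -1.20 and 1.25 on that scale. For the genotype difference in water the median of all genes on that scale was -1.49.

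Ncf4, which carries p40phox, had -0.11, 0.24 and -0.10 in Parp1-/- DSS mice and -0.019, 0.77 and 0.027 in wild-type DSS mice. In water it had -0.23, -0.29 and -0.37 in Parp1-/- mice and 0.54, 0.73 and 0.019 in wild-type mice. The Parp1-/- water arrays lay wholly below the wild-type water arrays, and Ncf4 was lower in Parp1-/- mice there by a log2 difference of -0.72 ± 0.24 (adjusted p = 0.0417 in limma). It was the 1 of 7 oxidase genes called lower in that comparison, against 13.7% of all genes. The call was lost without any of 8 single arrays, among them the array labelled wild-type water 1 (adjusted p = 0.102), wild-type water 2 (0.117) and each Parp1-/- water array (0.0718 to 0.121). It was also lost with equal array medians (adjusted p = 0.0562), the receptor median as a covariate (0.352) and the smooth muscle mean as a covariate (0.192). The difference was -1.0 after quantile normalization (adjusted p = 0.0453) and -2.15 with the housekeeping mean subtracted (adjusted p = 0.000616). On the latter scale the median of all genes was -1.49 and 15861 genes were called lower. DSS differences of Ncf4 were 0.31 ± 0.24 in Parp1-/- mice (adjusted p = 1), without overlap, and -0.17 ± 0.24 in wild-type mice (adjusted p = 0.672). Under DSS the genotype difference of Ncf4 was -0.25 ± 0.24 (adjusted p = 0.872 in limma). That difference was called in 1 of 25 alternatives, at -0.67 with array weights (adjusted p = 0.0458). Ncf1 and Ncf4 shared 1 order of group means, wild-type water, wild-type DSS, Parp1-/- DSS and Parp1-/- water, while wild-type water was the lowest group for Cybb and Cyba.

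The promoters of Cybb and Ncf1 are shown because these phagocyte oxidase genes lay at opposite ends of the DSS response in wild-type mice. That of Cybb, chrX:9469275-9469574 on the minus strand, held 3 matches to the interferon response motif, starting at positions -167 and -123 on the opposite strand and at position -29 on the gene's strand, and 1 match to the PU.1 motif, starting at position 9 on the opposite strand. That of Ncf1, chr5:134229576-134229875 on the minus strand, held a STAT motif starting at position -88 and an interferon response motif starting at position -82, and these overlap:
Cybb: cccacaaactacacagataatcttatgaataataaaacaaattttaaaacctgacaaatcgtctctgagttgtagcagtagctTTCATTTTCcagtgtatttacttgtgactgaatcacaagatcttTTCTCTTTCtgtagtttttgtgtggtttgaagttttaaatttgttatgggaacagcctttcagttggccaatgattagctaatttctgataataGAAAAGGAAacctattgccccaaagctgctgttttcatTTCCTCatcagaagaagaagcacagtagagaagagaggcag
Ncf1: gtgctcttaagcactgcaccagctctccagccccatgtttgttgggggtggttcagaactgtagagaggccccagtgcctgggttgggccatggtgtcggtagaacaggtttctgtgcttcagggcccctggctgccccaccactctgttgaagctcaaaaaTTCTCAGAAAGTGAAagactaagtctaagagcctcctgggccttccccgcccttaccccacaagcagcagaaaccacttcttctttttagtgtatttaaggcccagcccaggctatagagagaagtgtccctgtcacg
The Cyba and Noxo1 windows held none of the 5 motifs.

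Macrophage markers were measured for 12 of 12 listed genes. Their mean was 0.30 to 0.39 in Parp1-/- DSS arrays, against -0.31 to 0.37 in Parp1-/- water arrays, and -0.056 to 0.67 in wild-type DSS arrays, against -0.54 to -0.24 in wild-type water arrays. In wild-type mice 11 of the 12 had differences above 0 under DSS, and 3 were called higher, against 8.89% of all genes. These were the lipopolysaccharide co-receptor gene Cd14 (2.12 ± 0.50, adjusted p = 0.0180), Cd68 (1.54 ± 0.26, adjusted p = 0.00346) and the complement gene C1qb (1.45 ± 0.34, adjusted p = 0.0182, limma). In Parp1-/- mice 4 of the 12 had differences above 0, with a median of -0.068 against 0.010 for all genes, and 0 passed. The monocyte marker Ly6c2 came nearest at 2.16 ± 0.49 (adjusted p = 0.454 in limma). B cell markers, 5 of 6 measured, had 0 calls in any comparison. The part of these markers in the phagocyte oxidase values was not tested.

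**Figure D3:**
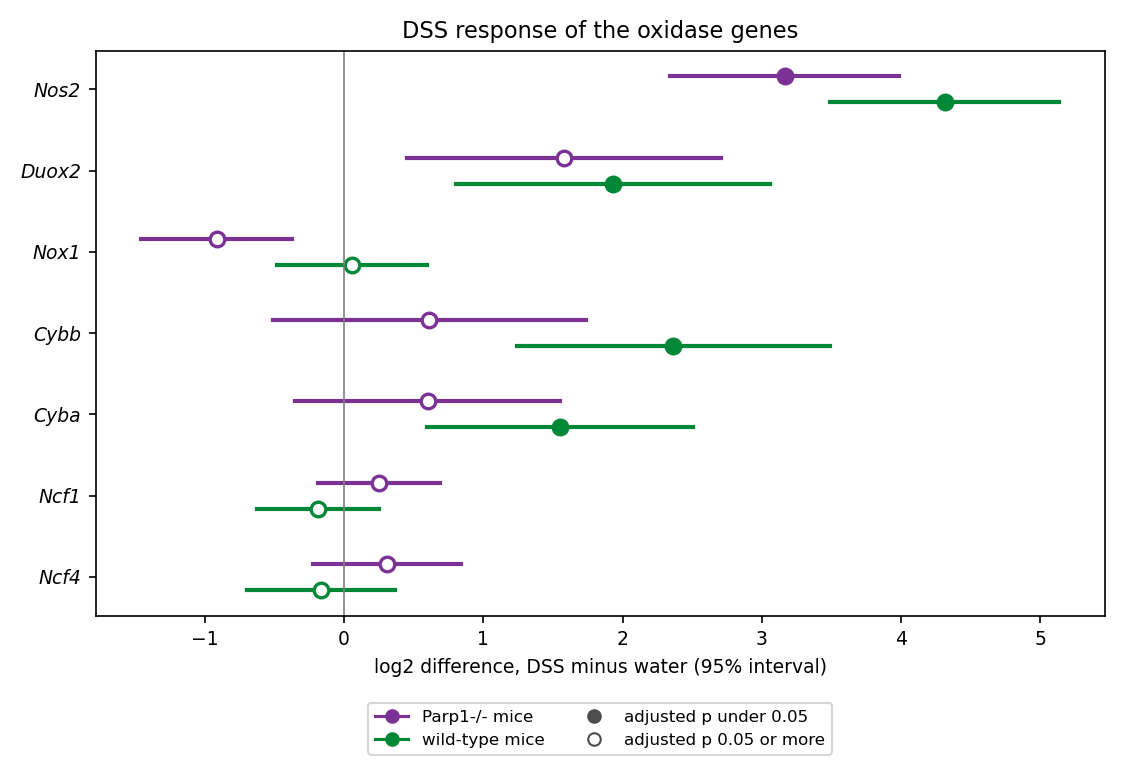
DSS minus water difference (horizontal axis, log2) of each measured oxidase gene in Parp1-/- mice and wild-type mice, with 95% intervals from limma. Filled points passed an adjusted p under 0.05, which was 1 gene in Parp1-/- mice and 4 genes in wild-type mice.

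Side by side, 1 of 7 oxidase genes was called higher under DSS in Parp1-/- mice (Nos2) and 4 of 7 in wild-type mice (Nos2, Cybb, Duox2 and Cyba), with 0 called lower in either. The wild-type count stands against 8.89% of all genes called higher and 4.16% called lower. In wild-type mice the DSS arrays lay wholly above the water arrays for 2 of the 7 (Nos2 and Cybb), against 11.4% of all genes, and wholly below for 0 of the 7, against 12.2%. The median difference of the 7 was 0.60 in Parp1-/- mice and 1.55 in wild-type mice, against 0.010 and -0.052 for all genes. In wild-type mice the 16 housekeeping genes had a mean difference of 1.15 with 10 called higher, whereas in Parp1-/- mice their mean difference was -0.045 with 0 called. Subtracting the housekeeping mean moved the median of all genes to -1.20 in the wild-type comparison. There Nos2 (3.16), Cybb (1.21), Duox2 (0.78), Cyba (0.40) and Nox1 (-1.09) lay above that median, and Ncf1 (-1.34) and Ncf4 (-1.32) lay below it. On that scale Nos2 and Cybb were called higher in wild-type mice, and Nox1, Ncf1 and Ncf4 were called lower, as were 15253 genes in all.

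**Figure D4:**
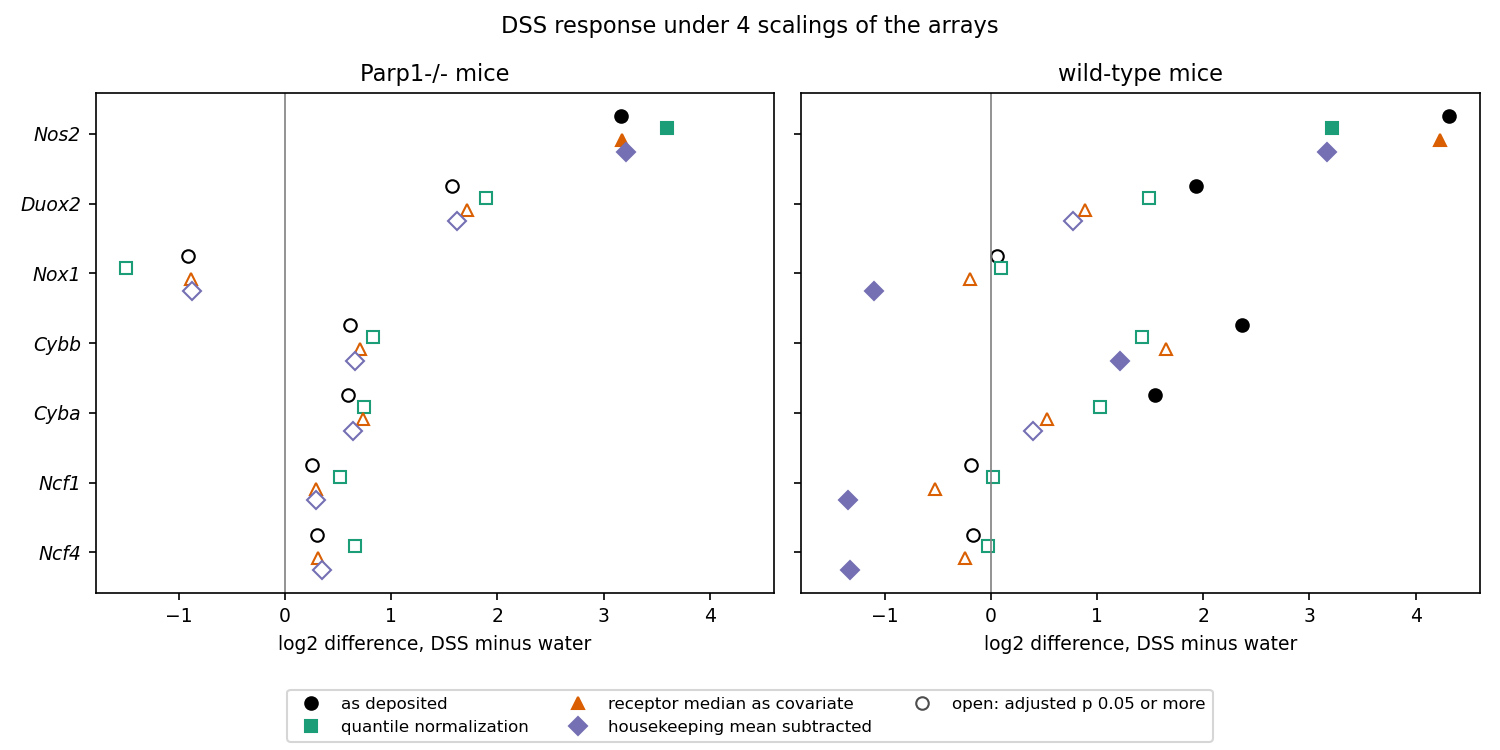
DSS minus water difference (horizontal axis, log2) of the measured oxidase genes in Parp1-/- mice (left) and wild-type mice (right) under 4 scalings of the arrays. Filled symbols passed an adjusted p under 0.05. In Parp1-/- mice each gene keeps its sign, with Nos2 running from 3.17 to 3.60 and Nox1 from -1.49 to -0.87. In wild-type mice Nos2 runs from 3.16 to 4.31 and Nox1 from -1.09 to 0.10.

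Between the genotypes under DSS, 0 of 7 oxidase genes were called by limma, as were 0 of all 21314 genes, while 593 genes (2.78%) had an unadjusted p under 0.05. Nos2 was the 1 oxidase gene among them. The 7 differences ran from -1.22 (Nos2) to 0.39 (Cyba), with a median of -0.25, against 0.0021 for all genes. In water, where 1 of 7 was called higher (Cyba) and 1 lower (Ncf4), 31.6% of all genes were called in either direction. The difference of the DSS responses was called for 0 of the 7, against 2.54% of all genes (0.216% higher and 2.33% lower), and 3 of the 7 (Nox1, Cybb and Nos2) had adjusted p between 0.183 and 0.292. For Cyba it was -0.95 ± 0.62 (adjusted p = 0.437), and it was called with array weights (-1.31, adjusted p = 0.0157) and without the array labelled wild-type DSS 1 (-1.49, adjusted p = 0.0494). For Ncf4 the difference of the DSS responses was called with the housekeeping mean subtracted (1.67, adjusted p = 0.0416, limma), a scale on which the median of all genes was 1.25.

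**Figure D5:**
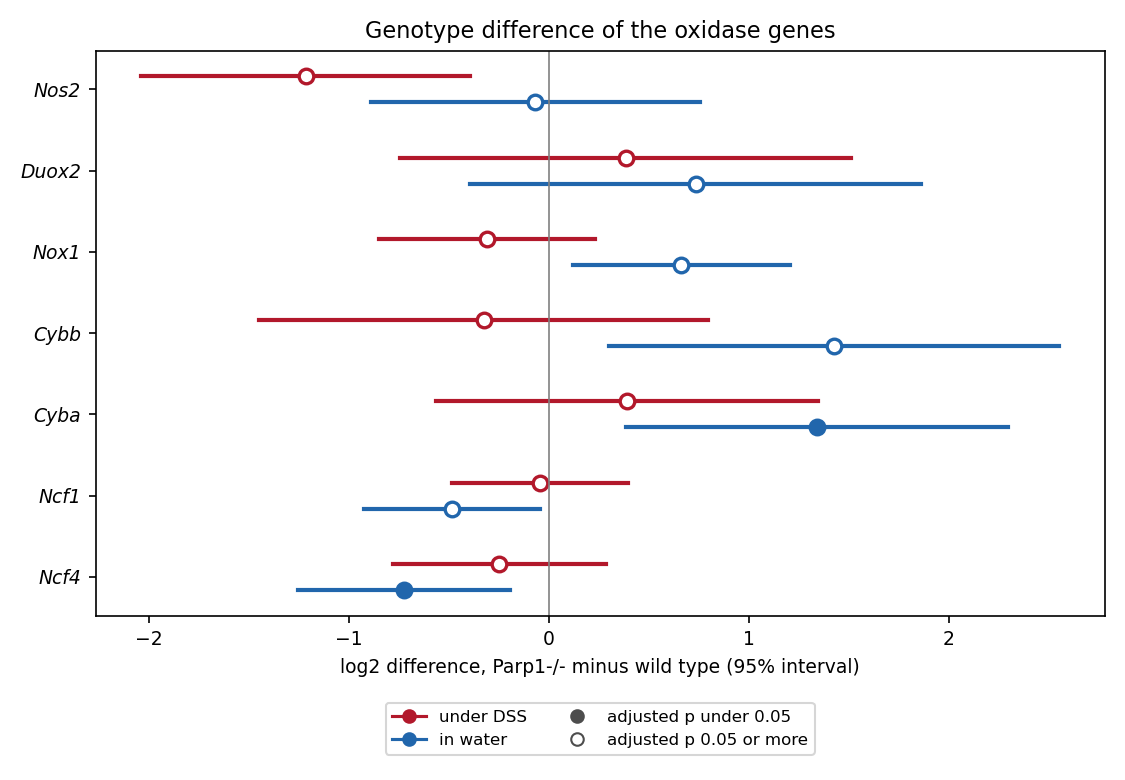
Parp1-/- minus wild-type difference (horizontal axis, log2) of each measured oxidase gene under DSS and in water, with 95% intervals from limma. Filled points passed an adjusted p under 0.05: Cyba and Ncf4 in water and none under DSS, where the Nos2 interval runs from -2.04 to -0.40.

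Of the other NADPH oxidase genes, 9 of 10 were measured. In Parp1-/- mice 0 of the 9 passed under DSS, and in wild-type mice 1 of the 9 did (8.89% of all genes were called higher). This was Rac1, the small GTPase that activates Nox1 and the phagocyte oxidase. Rac1 had 0.41, 0.17 and 0.66 in Parp1-/- DSS mice, 0.049, 0.48 and 0.36 in wild-type DSS mice, -0.061, -0.11 and -0.049 in Parp1-/- water mice and -2.23, -1.38 and -2.18 in wild-type water mice. The wild-type water arrays stood alone at the bottom. Its rise under DSS was 2.23 ± 0.23 in wild-type mice (adjusted p = 0.000190), and in water it was higher in Parp1-/- mice by 1.85 ± 0.23 (adjusted p = 0.000427, limma).

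Enzymes that remove superoxide and peroxide were measured for 13 of 16 listed genes. In wild-type mice 10 of the 13 had differences above 0 under DSS. Of these, 4 were called higher (Cat, Txnrd1, Sod1 and Txn1), against 8.89% of all genes, led by catalase (Cat) at 1.67 ± 0.39 (adjusted p = 0.0182 in limma). In Parp1-/- mice 6 of the 13 had differences above 0 and 0 were called, with a median of -0.028. In water 6 of the 13 were called higher in Parp1-/- mice, against 17.9% of all genes, among them the superoxide dismutase gene Sod1 by 2.40 ± 0.31 (adjusted p = 0.000488). The transcription factor Nrf2 and the genes it induces gave 3 of 8 called higher in wild-type mice under DSS. In water 5 of 8 were called higher in Parp1-/- mice, against the same 8.89% and 17.9%, and 0 of 8 were called under DSS in Parp1-/- mice. Nfe2l2, which encodes Nrf2, had -0.060, 0.24 and -0.092 in Parp1-/- DSS mice, -0.094, 0.14 and 0.060 in wild-type DSS mice, 0.27, 0.12 and 0.14 in Parp1-/- water mice, and -2.23, -2.0 and -2.21 in wild-type water mice. Here too the wild-type water arrays stood alone, and 12 of the 16 housekeeping genes were called higher in Parp1-/- water mice. The haloperoxidase genes, 3 of 3 measured, had 0 calls in any comparison, Mpo of neutrophils included.

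Genes most like the oxidase genes over the arrays were ranked by Pearson's r, which is given as a description. Genes can score high by sharing a difference between DSS and water arrays, or by sharing the shift in housekeeping genes. With the housekeeping mean, r over 12 arrays was 0.75 for Duox2, 0.75 for Cybb, 0.39 for Nos2 and 0.34 for Nox1. Over the 8 arrays that did not stand apart it was 0.25, -0.069, 0.12 and 0.079, in that order. The part of this shift in the rankings was not tested. For Nos2 the nearest over 12 arrays were the interferon-induced GTPase gene Gbp2b (r = 0.96), Zfp37, Oasl2, Slfn4 and Ddx60, and over the 8 arrays that did not stand apart Slfn4 (r = 0.99), Zbp1, Fkbp15, Fam110c and Parp14. For Duox2 they were Tma7 (r = 0.97), Tlr4, Hs1bp3, Skil and Necap1 over 12 arrays, and Lpcat4 (r = 0.99), Gna14, Steap4, Pfkp and Cotl1 over 8. For Cybb the 12 arrays gave the leukocyte gene Ptprc (r = 0.97), which encodes CD45, then Nckap1l, Nrg1, Tyrobp and Lcp1, and the 8 arrays gave Nrg1 (r = 0.99), Ms4a6c, Fxyd5, Timp1 and Clec4n. Nox1 had weaker matches over 12 arrays, with Twnk (r = 0.81) and the goblet and enteroendocrine gene Reg4 (r = 0.80) first, then Rabggtb, St3gal5 and Hykk, and over 8 arrays the nearest were Borcs5 (r = 0.97), Sf3b2, Cep295, Krtap21-1 and Tcl1b2. Only Slfn4 for Nos2 and Nrg1 for Cybb were among the nearest 5 in both sets of arrays.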

How the data were processed

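Per the labels' protocols, whole colon RNA was biotin-labelled for Affymetrix arrays. The authors' deposited values, taken as log2, covered 31693 probe sets and 12 arrays and were already centred so that each probe set had a median of 0 (within 5e-07) over the arrays. Software, background correction, normalization, log base and direction were not given in the sources used here. A higher value was taken to mean more RNA on a log2 scale. Array medians over all probe sets, replicates 1 to 3 of each group, were 0.000797, -0.0204 and -0.00781 (Parp1-/- DSS), 0.0784, 0.000299 and -0.00104 (wild-type DSS), -0.00315, -0.0310 and -0.0438 (Parp1-/- water) and 0.0576, 0.0999 and 0.0946 (wild-type water). Signal over background is unknown, and the number of arrays limits the precision. No 2 arrays were identical.

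Probe sets were named from GEO's platform annotation. It gave 1 symbol for 22586 probe sets, several for 1756 and none for 7351. Probe sets of a gene were averaged (21314 genes, 20283 of them with 1 probe set). One model of the 4 groups was fitted over all 12 arrays by lmFit and eBayes of limma 3.58.1 under R 4.3.3, and the Benjamini-Hochberg adjustment ran over all genes, with calls at an adjusted p under 0.05. The script was tested on simulated data. Sequences came from RefSeq (GRCm38.p6), which held 7 of the 9 promoters. Figures used Python 3.11.15 with matplotlib 3.10.9.

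The members and gene lists were chosen with earlier results of these data known. Named genes were the oxidase genes, Parp1, up to 4 called genes of a list and comparison with the largest change (otherwise the 2 of smallest p), and the 5 genes most like Nos2, Duox2, Nox1 and Cybb. The likeness ranking passed over predicted genes, clones, small RNA, smell receptor and immune receptor segment genes. Lists were nitric oxide supply, other NADPH oxidase genes, superoxide and peroxide removal, Nrf2 targets, haloperoxidases, known inducers, housekeeping genes and markers of neutrophils, macrophages, B cells, colon epithelium and smooth muscle. Alternatives changed the scaling, probe set rule, error model, arrays fitted, covariates and threshold.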

Additional observations from a re-analysis of the deposited data

How the results depend on the processing

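All values are log2 differences or counts of calls, in the order Parp1-/- DSS against water, wild-type DSS against water, Parp1-/- against wild type in water, the same under DSS, and the difference of the DSS responses, unless named. Leaving out each array in turn gave 1 to 22, 1211 to 6865, 2948 to 9384, 0 to 2 and 177 to 3178 genes called, and 0 to 1, 2 to 4, 0 to 5, 0 to 0 and 0 to 2 oxidase genes called. The 1211 to 6865 genes came without wild-type DSS 2 and without the array labelled wild-type DSS 1. Quantile normalization gave 118, 207 and 2118 genes in the first 3 comparisons and 0 for the responses, with 1 oxidase gene in wild-type DSS. Subtracting the housekeeping mean gave 16, 15672 and 16392 genes and 7017 for the responses, with 4 oxidase genes in water and 2 for the responses; it moved the median of all genes to -1.20 in wild-type DSS and -1.49 in water, and turned the split of wild-type DSS calls to 419 higher and 15253 lower. Array weights gave 1638, 5980, 631 (under DSS) and 5463 genes, with 3 oxidase genes in Parp1-/- DSS, 4 in water, 2 under DSS and 3 for the responses. Only the arrays compared gave 9 and 641 genes in the DSS comparisons and 0, 1 and 4 oxidase genes in the first 3. The receptor covariate gave 27 genes in Parp1-/- DSS and 459 in water, with 1 oxidase gene in wild-type DSS and 0 in water. The smooth muscle covariate gave 1 gene in Parp1-/- DSS, 1749 in water and 335 for the responses, with 0 oxidase genes in Parp1-/- DSS and in water. Parp1-/- DSS gave 5 genes with equal medians, 6 with the probe set of highest mean, 7 with trend and robust options and 13 on the 8 arrays that did not stand apart, and trend and robust options gave 133 genes for the responses and 4 oxidase genes in water. At an adjusted p under 0.01, 1, 1025 and 2429 genes and 136 for the responses remained called, with 0, 1 and 0 oxidase genes in the first 3 comparisons.

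Signs turned as follows, and the cause was not tested. In wild-type DSS, Nox1 was -1.09 with the housekeeping mean subtracted, -0.19 with the receptor covariate and -0.083 to 0.26 with an array left out. Ncf1 there was 0.020 after quantile normalization, 0.024 with array weights and -0.31 to 0.031 with an array left out, and Ncf4 was 0.30 with array weights. In water, Nos2 was 0.28 with the smooth muscle covariate and -0.33 to 0.30 with an array left out. Duox2 was -0.019 after quantile normalization, -0.69 with the housekeeping mean subtracted and -1.02 with the receptor covariate. Nox1 was -0.76 and Cyba -0.081 with the housekeeping mean subtracted, and Cyba -0.37 with the receptor covariate. Under DSS, Duox2 was -0.15 on the 8 arrays, -0.19 with the receptor covariate and -0.15 to 0.82 with an array left out. Cyba was -0.14 with array weights, -0.15 on the 8 arrays, -0.17 with the receptor covariate and -0.15 to 0.66 with an array left out. With an array left out Cybb was -0.88 to 0.32, Ncf1 -0.26 to 0.074 and Ncf4 -0.39 to 0.0076. For the responses, quantile normalization gave 0.39 for Nos2 and 0.40 for Duox2. The housekeeping mean gave 0.049 for Nos2, 0.85 for Duox2, 0.22 for Nox1 and 0.25 for Cyba, and the receptor covariate gave 0.83 for Duox2 and 0.20 for Cyba. Duox2 was -0.88 to 0.20 with an array left out.

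Background correction, a filter on dim probe sets and a slide block were not run, since the table holds neither brightness nor slides. Only the 8 arrays could not give the comparisons with wild-type water mice. No paired analysis was possible because the labels number no replicates across groups. Every probe set on its own and a 1.5-fold minimum moved no count of calls by over 1.5 times.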
